A study of Mus musculus with 12 samples.

Results

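The 10 genes described here are regulators of the G1 phase of the cell cycle, followed in the embryonic mouse cortex of 3 genotypes. They are the D cyclins Ccnd1, Ccnd2 and Ccnd3, the E cyclin Ccne1, the kinases Cdk4 and Cdk6, and the cyclin-dependent kinase (CDK) inhibitors Cdkn1b, Cdkn1c, Cdkn2c and Cdkn2d. The members were a given list of gene symbols, 10 of the 54735 in every deposited table. All 10 were among the 11764 symbols with a mean of at least 1 TPM. TPM is a read abundance that is divided by transcript length and scaled to 1 fixed sum per library, so levels can be compared between genes.

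RNA was sequenced from the pallium, the dorsal telencephalon that forms the cerebral cortex, of 12 C57/Bl6 embryos at E13.5, with 4 embryos per genotype. All of them carried Emx1-Cre, a recombinase driven in the dorsal telencephalic lineage, so vessels, microglia and other cells from outside that lineage are not expected targets of it. Control embryos were Rnu11wt/flx::Trp53wt/wt, with 1 floxed and 1 wild-type allele of Rnu11, the gene of the U11 small nuclear RNA of the minor spliceosome, and are not wild-type animals. The cKO embryos were Rnu11flx/flx::Trp53wt/wt, and the dKO embryos were Rnu11flx/flx::Trp53flx/flx, lacking both Rnu11 and the gene of p53 where the Cre acts. The series title gives its question as whether p53 loss rescues the small cortex that follows impaired minor intron splicing. The comparisons here ask how the G1 genes stood in each mutant and between the mutants. The labels do not say whether embryos of a genotype came from separate litters, so p-values measure the spread between these embryos.

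In G1, D cyclins bind CDK4 or CDK6 and begin to phosphorylate the retinoblastoma proteins, and E cyclins with CDK2 carry the cell past the commitment to DNA synthesis. Inhibitors of the INK4 family (Cdkn2 genes) bind CDK4 and CDK6, while those of the Cip/Kip family (Cdkn1 genes) bind assembled cyclin and kinase complexes. In the developing cortex the length of G1 is tied to whether a progenitor divides again or yields neurons, and Cdkn1b, Cdkn1c and Cdkn2d are known for their part in cell cycle exit.

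The labels were checked on the targeted genes. Rnu11 stood at 640.5 ± 86.4 TPM in controls, 144 ± 20.4 in cKO and 164 ± 26.3 in dKO embryos (SD, n = 4), and Trp53 at 3.82 ± 1.73, 4.24 ± 0.404 and 1.23 ± 0.252 TPM. Every embryo of a mutant group was below every control for Rnu11, and every dKO embryo was below all others for Trp53. All 10 listed radial glia markers were measured, with a summed level of 260 to 294 TPM in controls, 306 to 362 in cKO and 283 to 289 in dKO embryos. Markers of the ventral forebrain summed to only 1.68 to 5.29 TPM over all libraries. Protein-coding genes held 14.4% to 19.99% of a library's TPM. The median of all tested genes lay 0.25 higher on the log2(TPM + 1) scale in cKO than in control. The library shifts were 0.08 to 0.32 in cKO, -0.16 to -0.02 in control and -0.13 to -0.06 in dKO, with cKO embryo 4 the highest. Each result is therefore given as deposited and after median-shift centring, which removes that shift from every library. Differences are given in log2(TPM + 1) units, in which genes of low TPM move less than their true ratio.

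Of the 10 genes, Ccnd1 lay above all controls in every mutant embryo. Between these scales, the difference was called in cKO only as deposited and in dKO only after centring. With the protein-coding sum of every library set equal, it was called in both mutants. Cdkn2c was lower in dKO than in control, and Cdk6 and Ccnd3 were higher in cKO on the deposited scale. In cKO against control, limma called 3 of the 10 genes higher on the deposited scale (Ccnd1, Ccnd3 and Cdk6) and none lower, where 34.3% of all tested genes were called higher. The same 3 genes had no overlap between the groups, as had 33.7% of all genes. After centring, limma called 0 of 10, against 6.68% of all genes called in either direction. At an unadjusted p under 0.05 stood 4 of 10, against 21.6% of all genes. Ccnd1 and Ccnd3 then lay above and Cdkn1b and Cdkn2c below all controls, against 16.6% of all genes without overlap. The median difference over the 10 genes was 0.23 on the deposited scale and -0.02 after centring, beside 0.25 and -0.0034 over all tested genes. The share of members called in cKO was thus near the background share on the deposited scale.

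In dKO against control, limma called 1 of the 10 genes lower on the deposited scale (Cdkn2c), where 3.4% of all genes were called lower. After centring it called Ccnd1 higher, with 3.74% of all genes called higher, and Cdkn2c lower, with 4.69% called lower. Ccnd1 lay above all controls and Ccne1 and Cdkn2c below all controls on both scales, while 13.6% of all genes as deposited and 14.1% after centring did not overlap. The median difference over the 10 genes was 0.05 as deposited and 0.07 after centring, beside -0.01 and 0.0051 over all genes.

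In dKO against cKO, limma called Cdk6 and Cdkn2c lower on the deposited scale, where 38.8% of all genes were called lower. The same pair did not overlap between the mutants, as did 33.2% of all genes. After centring, limma called 0 of 10, against 5.93% of all genes. At an unadjusted p under 0.05 stood 1 of 10 (Ccnd2, higher in dKO), against 23.4% of all genes. None of the 10 was without overlap, against 14.7%. The median over the 10 genes was -0.18 as deposited and 0.08 after centring, beside -0.26 and 0.01 over all genes. The mutants are compared with the same 4 controls, so their differences from control are not independent of each other. The plot of differences shows each gene's estimate on both scales.

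**Figure D1:**
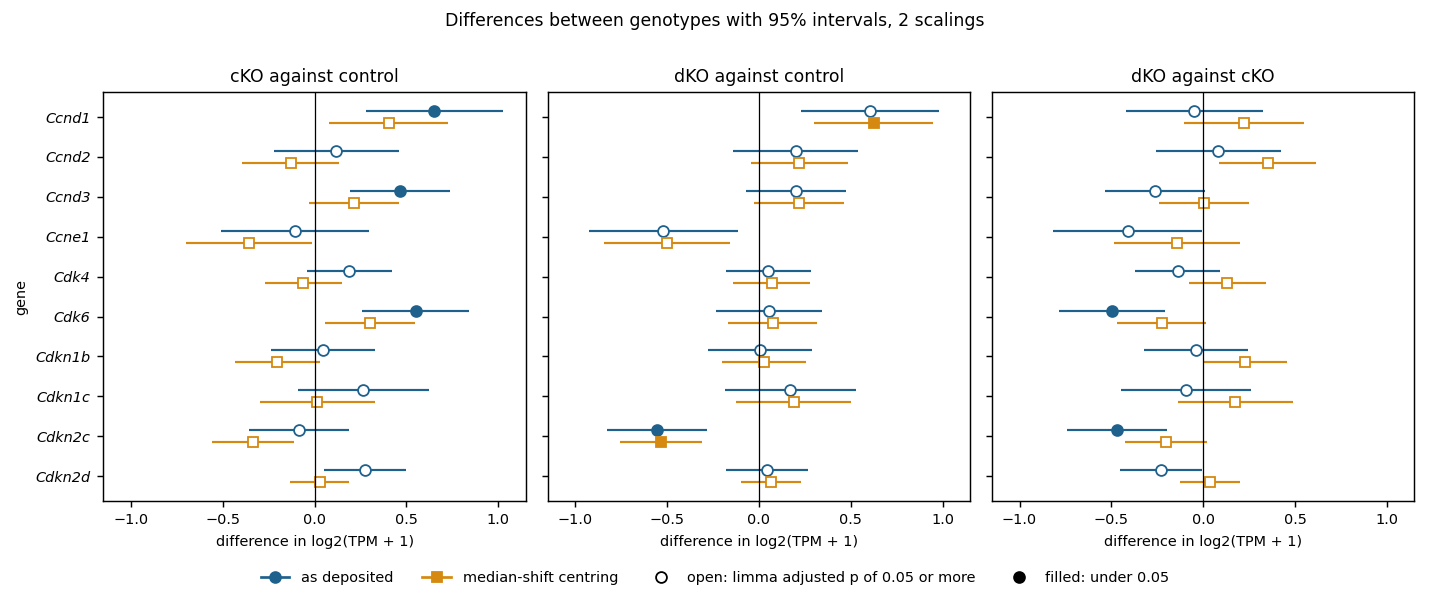
Difference in log2(TPM + 1) with its 95% interval from limma for each of the 10 genes (rows) in the 3 comparisons (panels). Blue circles are values as deposited, orange squares are values after median-shift centring, and filled markers have an adjusted p under 0.05. In cKO against control, centring moved Ccnd2, Cdk4 and Cdkn1b from above to below 0, and in dKO against cKO it moved Ccnd1, Ccnd3, Cdk4, Cdkn1b, Cdkn1c and Cdkn2d from below to above 0. In dKO against control each gene kept its side, with Ccnd1 at 0.61 and 0.62 and Cdkn2c at -0.56 and -0.54.

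Levels of the 10 genes spanned a wide range in control pallium. Cdk4 (99.4 TPM) and Ccnd2 (89.6 TPM) were the most abundant, and their ranges over embryos overlapped. Cdkn1c followed at 33.2 TPM, below every Ccnd2 value and above every Ccnd1 value. Ccnd1 (11.6 TPM) and Cdkn1b (9.08 TPM) overlapped, and so did Cdkn2c (6.65 TPM), Ccne1 (6.63 TPM) and Cdkn2d (6.15 TPM). Ccnd3 (2.81 TPM) and Cdk6 (1.70 TPM) were lowest, and each was separate from its neighbours in the order. In both mutant groups Cdk4, Ccnd2, Cdkn1c and Ccnd1 kept the first 4 places and Cdk6 the last, and there the Ccnd1 range lay wholly above that of Cdkn1b. In dKO embryos Cdkn2c (4.21 TPM) overlapped both Ccne1 (4.33 TPM) and Ccnd3 (3.41 TPM), and Cdkn2d (6.36 TPM) was separate from all of them.

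**Figure D2:**
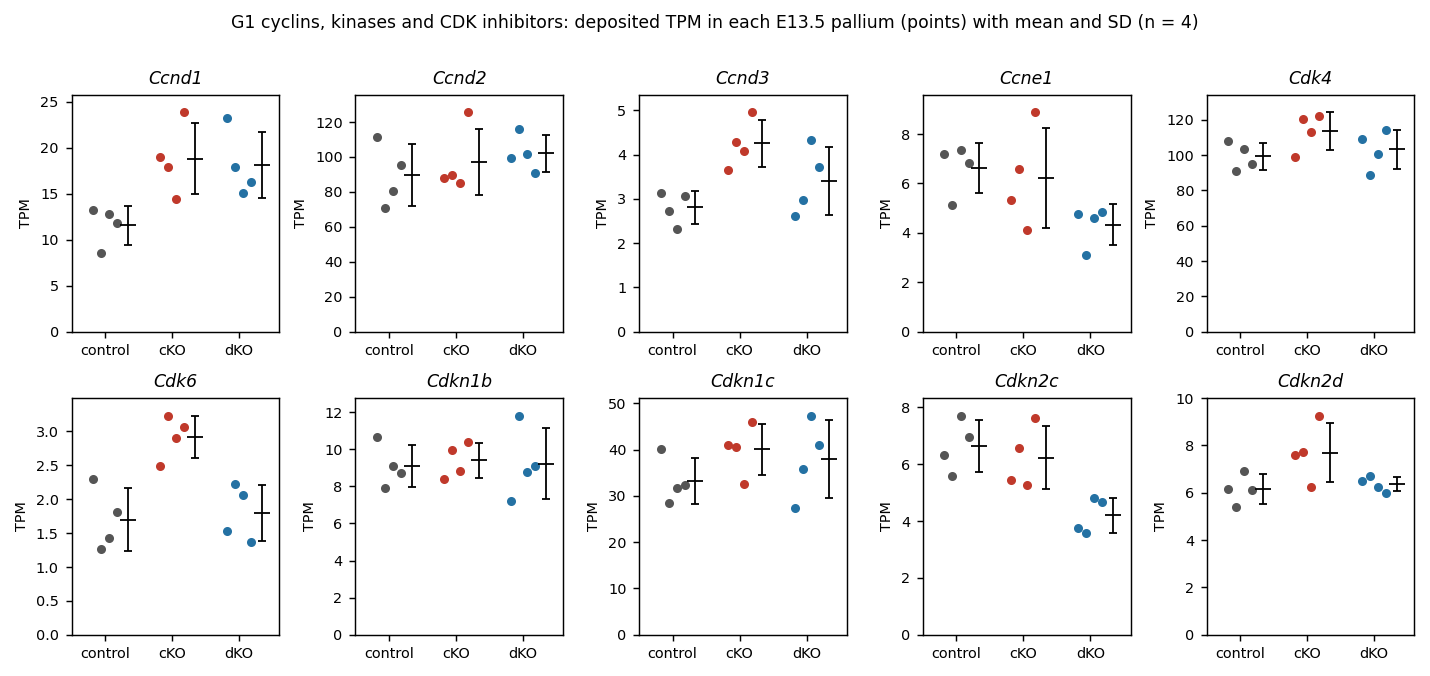
Deposited TPM (linear axis from 0) of the 10 genes in each embryo, 1 panel per gene, with control in grey, cKO in red and dKO in blue; the horizontal mark and bar beside each group are the mean and SD (n = 4). For Ccnd1 every mutant embryo is above the control range of 8.52 to 13.2 TPM, and for Cdkn2c every dKO embryo, at 3.58 to 4.80 TPM, is below the other embryos of both groups.

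Ccnd1 encodes cyclin D1, which carries mitogen signals to CDK4 and CDK6. The gene lies on chromosome 7 at 144929931 to 144939925, minus strand, mm10, with 5 exons. It measured 13.2, 8.52, 12.8 and 11.8 TPM in control embryos 1 to 4, 19.0, 17.9, 14.5 and 23.9 TPM in the cKO embryos, and 23.3, 17.9, 15.1 and 16.3 TPM in the dKO embryos. Control embryo 2 was the lowest of all, every mutant embryo was above every control, and the mutant groups overlapped each other. In cKO Ccnd1 was higher than in control by 0.65 ± 0.172 (log2 difference ± SE, limma adjusted p = 0.0144) on the deposited scale and by 0.40 ± 0.149 (adjusted p = 0.138) after centring. In dKO it was higher by 0.61 ± 0.172 (adjusted p = 0.0637) as deposited and by 0.62 ± 0.149 (adjusted p = 0.0261) after centring. The call in each mutant thus rests on the scale, while the direction did not change. With protein-coding rescaling, which sets the protein-coding sum of every library equal, limma called Ccnd1 higher in both mutants. The values were 0.51 (adjusted p = 0.0280) in cKO and 0.67 (adjusted p = 0.00970) in dKO. By quantile normalization it was called in dKO (0.62, adjusted p = 0.0136) and not in cKO (0.42, adjusted p = 0.0768). The centred call in dKO was lost without control embryo 2 (0.52, adjusted p = 0.0676) or control embryo 4 (0.64, adjusted p = 0.0583), and the deposited difference in dKO passed without cKO embryo 4 (adjusted p = 0.0483). Between dKO and cKO the difference was -0.05 (95% interval -0.42 to 0.33) as deposited and 0.22 (-0.10 to 0.55) after centring. Ccnd1 was not called in that comparison on either scale, with adjusted p of 0.830 and 0.402.

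Ccnd2, the most abundant D cyclin here and one known in radial glia, lies on chromosome 6 at 127125162 to 127152193, minus strand. It measured 111, 71.1, 80.3 and 95.6 TPM in control embryos, 88.2, 89.9, 85.1 and 126 TPM in cKO embryos, and 99.4, 116, 102 and 90.9 TPM in dKO embryos. The 3 groups overlapped, and cKO embryo 4 stood above the other 3 of its group. The difference from control was 0.12 (95% interval -0.22 to 0.46) in cKO and 0.20 (-0.14 to 0.54) in dKO as deposited, and -0.13 (-0.39 to 0.13) and 0.22 (-0.04 to 0.48) after centring. Its direction in cKO thus flipped with the scale, and no call was made. Between the mutants, Ccnd2 was 0.08 higher in dKO as deposited (adjusted p = 0.684) and 0.35 higher after centring (0.09 to 0.61, adjusted p = 0.110).

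Ccnd3, the third D cyclin, lies on chromosome 17 at 47505051 to 47599691, plus strand. It measured 3.13, 2.72, 2.31 and 3.06 TPM in controls, 3.66, 4.30, 4.09 and 4.96 TPM in cKO, and 2.61, 2.98, 4.32 and 3.73 TPM in dKO. Every cKO embryo was above every control, while dKO embryos 1 and 2 lay within the control range and dKO embryos 3 and 4 above it. Ccnd3 was higher in cKO by 0.46 ± 0.126 (limma adjusted p = 0.0163) as deposited, and the difference was 0.22 ± 0.113 (adjusted p = 0.299) after centring. Without cKO embryo 4 the deposited call was lost (0.40, adjusted p = 0.0523). In dKO the difference from control was 0.20 (-0.07 to 0.48) as deposited and 0.22 (-0.02 to 0.47) after centring, without a call. Against cKO, dKO stood at -0.26 (adjusted p = 0.110) as deposited and 0.01 (adjusted p = 0.983) after centring. That deposited difference passed without dKO embryo 3 (-0.36, adjusted p = 0.04).

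Shares within a family do not depend on the scale of a library, since 1 factor per library cancels. Ccnd2 made up 84.2% to 87.2% of the summed D cyclin TPM in controls, 79.5% to 82.1% in cKO and 79.3% to 84.7% in dKO. The Ccnd1 share was 10.3%, 10.4%, 13.4% and 10.7% in control embryos 1 to 4, with cKO at 14.0% to 17.2% and dKO at 12.5% to 18.6%. The Ccnd1 share of every cKO embryo was above every control, whereas dKO embryos 2 and 3 lay within the control range. Ccnd3 held 2.74% ± 0.412 of D cyclin TPM in controls, 3.57% ± 0.370 in cKO and 2.80% ± 0.781 in dKO (SD, n = 4), with overlapping ranges. These shares were not tested.

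Ccne1 encodes cyclin E1, the partner of CDK2, and lies on chromosome 7 at 38097984 to 38107534, minus strand, with 12 exons. It measured 7.18, 5.14, 7.37 and 6.82 TPM in controls, 5.34, 6.58, 4.13 and 8.88 TPM in cKO, and 4.76, 3.12, 4.61 and 4.84 TPM in dKO. Every dKO embryo was below every control, dKO embryo 2 was the lowest of all, and the cKO embryos spread across and beyond the control range. The difference in dKO was -0.52 ± 0.186 (limma adjusted p = 0.134) as deposited and -0.50 ± 0.158 (adjusted p = 0.0740) after centring, so it did not pass the test over all genes. In cKO it was -0.11 (-0.51 to 0.30) as deposited and -0.36 (-0.70 to -0.01, adjusted p = 0.216) after centring, and without cKO embryo 3 the deposited value turned to 0.04. Against cKO, dKO stood at -0.41 (adjusted p = 0.0928) as deposited and -0.14 (adjusted p = 0.625) after centring. Without cKO embryo 3 that deposited difference was -0.56 and passed (adjusted p = 0.0263).

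Cdk4 and Cdk6 encode the catalytic partners of the D cyclins. Cdk4 lies on chromosome 10 at 127063534 to 127067920, and Cdk6 on chromosome 5 at 3341485 to 3531008, both on the plus strand with 8 exons. In control pallium Cdk4 made up 97.9% to 98.6% of the summed TPM of the pair. The 250 bases before each RefSeq start site are shown for these kinases. CACGTG, the E-box letters to which MYC family factors are known to bind, is in capitals. Sequences are RefSeq's, build GRCm38.p6, written 5′ to 3′ on the gene's strand. The Cdk4 window (chr10:127063285-127063534, plus strand) holds 4 matches and the Cdk6 window (chr5:3343643-3343892, plus strand) holds 1. Gene coordinates are GENCODE's, and the Cdk6 window lies inside them, since the RefSeq start site differs.
Cdk4: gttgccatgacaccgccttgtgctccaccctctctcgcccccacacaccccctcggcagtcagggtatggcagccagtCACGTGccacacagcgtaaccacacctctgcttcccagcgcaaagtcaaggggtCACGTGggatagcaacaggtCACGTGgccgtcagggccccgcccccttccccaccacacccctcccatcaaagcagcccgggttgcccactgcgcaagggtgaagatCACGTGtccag
Cdk6: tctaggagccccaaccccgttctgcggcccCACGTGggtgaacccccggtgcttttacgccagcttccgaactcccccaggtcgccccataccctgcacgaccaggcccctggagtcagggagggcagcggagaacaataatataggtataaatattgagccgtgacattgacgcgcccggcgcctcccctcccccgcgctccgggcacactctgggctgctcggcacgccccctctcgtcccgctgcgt
CACGTG was found in 6.02% of 32851 such windows, and in 2 of the 9 windows found for the members, those of Cdk4 and Cdk6. The 32851 windows leave out a chromosome on which none of the members lies. A match is a description of the letters and was not tested as a binding site.

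Cdk4 measured 108, 91.1, 104 and 95.1 TPM in controls, 98.7, 121, 113 and 122 TPM in cKO, and 109, 88.5, 101 and 114 TPM in dKO. The 3 groups overlapped. The difference in cKO was 0.19 (95% interval -0.04 to 0.42) as deposited and -0.06 (-0.27 to 0.15) after centring, so its direction flipped with the scale. In dKO it was 0.05 (-0.18 to 0.28) as deposited and 0.07 (-0.14 to 0.28) after centring. Against cKO, dKO stood at -0.14 as deposited and 0.13 after centring, with adjusted p of 0.304 and 0.443.

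Cdk6 measured 2.30, 1.27, 1.43 and 1.81 TPM in controls, 2.49, 3.22, 2.91 and 3.06 TPM in cKO, and 1.54, 2.22, 2.07 and 1.36 TPM in dKO. Every cKO embryo was above every embryo of the other genotypes, and dKO overlapped control. Cdk6 was higher in cKO than in control by 0.55 ± 0.134 (limma adjusted p = 0.01004) and lower in dKO than in cKO by 0.50 (log2 difference -0.50 ± 0.134, adjusted p = 0.0134) as deposited. After centring these differences were 0.30 (0.06 to 0.55, adjusted p = 0.140) and -0.23 (-0.47 to 0.02, adjusted p = 0.2498), the groups overlapped, and neither was called. With protein-coding rescaling, Cdk6 was called in cKO against control (0.44, limma adjusted p = 0.0421) and not in dKO against cKO (-0.34, adjusted p = 0.112). Between dKO and control Cdk6 differed by 0.05 (-0.24 to 0.34) as deposited and 0.07 (-0.17 to 0.32) after centring. As a share of Cdk4 and Cdk6 together, which the scale of a library cannot move, Cdk6 held 1.36% to 2.09% in controls, 2.45% to 2.602% in cKO and 1.18% to 2.45% in dKO. On that share cKO embryos all lay above controls, and the highest dKO embryo, number 2, was just under the lowest cKO embryo, number 4.

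**Figure D3:**
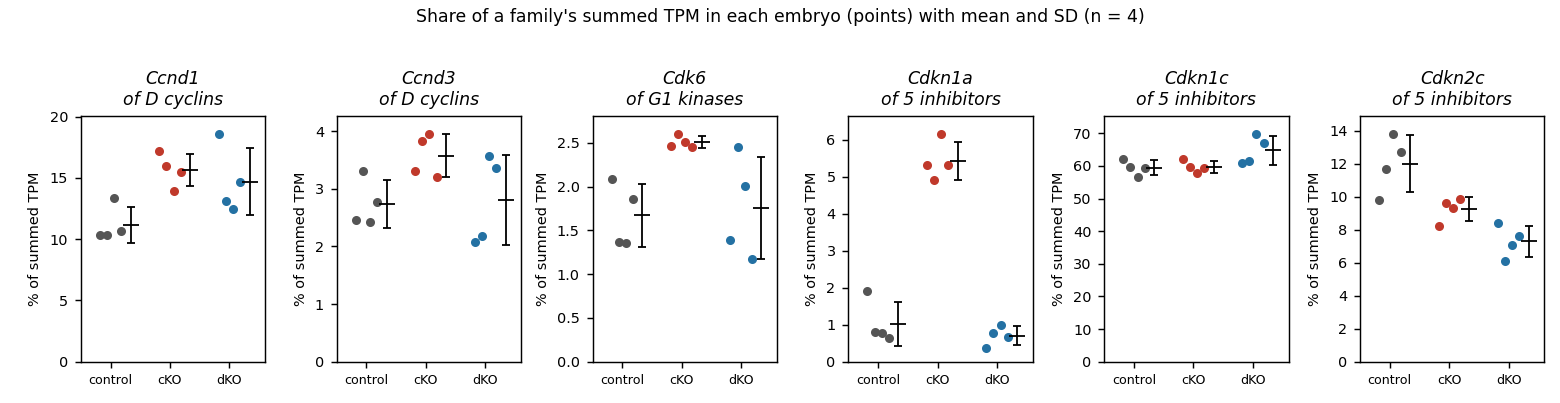
Share of a family's summed TPM (%, linear axis from 0) held by 6 genes in each embryo (points) with mean and SD (n = 4), for the D cyclins, the G1 kinases Cdk4 and Cdk6, and 5 CDK inhibitors (Cdkn1a, Cdkn1b, Cdkn1c, Cdkn2c and Cdkn2d). The Ccnd1 and Cdk6 shares of all cKO embryos are above those of all controls, and the Cdkn2c share of all dKO embryos, 6.13% to 8.39%, is below the control range of 9.81% to 13.8%. Cdkn1a, which is not one of the 10 genes, held 4.92% to 6.16% in cKO and 0.376% to 1.91% in the other groups.

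Among the Cip/Kip inhibitors, Cdkn1b encodes p27Kip1 and lies on chromosome 6 at 134920401 to 134925513, plus strand. It measured 10.6, 7.92, 9.08 and 8.70 TPM in controls, 8.41, 9.97, 8.83 and 10.4 TPM in cKO, and 7.19, 11.8, 8.78 and 9.07 TPM in dKO. The groups overlapped on the deposited scale. Differences from control were 0.05 (95% interval -0.24 to 0.33) in cKO and 0.01 (-0.28 to 0.29) in dKO as deposited. After centring the cKO value was -0.20 (-0.43 to 0.03, adjusted p = 0.297) with every cKO embryo below every control, and the dKO value was 0.03 (-0.20 to 0.26). Between the mutants Cdkn1b differed by -0.04 as deposited and by 0.23 (adjusted p = 0.215) after centring, so that direction also flipped with the scale.

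Cdkn1c encodes p57Kip2, is imprinted and lies on chromosome 7 at 143458339 to 143461050, minus strand. It was the most abundant inhibitor, with 40.2, 28.4, 31.7 and 32.5 TPM in controls, 40.9, 40.6, 32.6 and 46.0 TPM in cKO, and 27.3, 35.9, 47.4 and 41.0 TPM in dKO. Control embryo 1 stood with the mutants, and dKO embryo 1 was the lowest of all, so the groups overlapped. The difference from control was 0.26 (-0.09 to 0.62) in cKO and 0.17 (-0.19 to 0.53) in dKO as deposited, and 0.02 (-0.30 to 0.33) and 0.19 (-0.12 to 0.50) after centring. Between the mutants it was -0.09 as deposited and 0.18 after centring. No comparison of Cdkn1c was called. Its share of the summed TPM of the 4 inhibitors was 57.2% to 63.5% in controls, 61.6% to 65.6% in cKO and 61.1% to 70.5% in dKO.

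Among the INK4 inhibitors, Cdkn2c encodes p18Ink4c, known in dividing cortical progenitors, and lies on chromosome 4 at 109660876 to 109667189, minus strand, with 3 exons. It measured 6.34, 5.58, 7.71 and 6.96 TPM in controls, 5.44, 6.58, 5.27 and 7.63 TPM in cKO, and 3.77, 3.58, 4.80 and 4.66 TPM in dKO. All 4 dKO embryos were below all controls and all cKO embryos, and the cKO embryos lay around the control range. In dKO Cdkn2c fell by 0.56 (log2 difference -0.56 ± 0.126, limma adjusted p = 0.0240) from control as deposited and by 0.54 (-0.54 ± 0.103, adjusted p = 0.00841) after centring. The centred call held in 12 of 12 fits that left out an embryo. The deposited call held in 8 of 12 and was lost without control embryo 3 (adjusted p = 0.0810), control embryo 4 (0.0734), dKO embryo 1 (0.0580) or dKO embryo 2 (0.0615). In cKO the difference was -0.09 (-0.36 to 0.19, adjusted p = 0.593) as deposited and -0.33 (-0.56 to -0.11, adjusted p = 0.0780) after centring, where every cKO embryo was below every control. Against cKO, Cdkn2c was lower in dKO by 0.47 (-0.47 ± 0.126, adjusted p = 0.01295) as deposited, and the difference was -0.20 (-0.42 to 0.02, adjusted p = 0.266) after centring.

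Cdkn2d encodes p19Ink4d, known in cortical neurons that have left the cell cycle, and lies on chromosome 9 at 21288410 to 21291407, minus strand. It measured 6.17, 5.39, 6.92 and 6.12 TPM in controls, 7.60, 7.71, 6.23 and 9.26 TPM in cKO, and 6.48, 6.72, 6.25 and 6.003 TPM in dKO. The dKO embryos lay within the control range, and 3 of the 4 cKO embryos were above it. The difference in cKO was 0.28 ± 0.103 (limma adjusted p = 0.0538) as deposited and 0.03 (-0.14 to 0.19, adjusted p = 0.878) after centring. The deposited value passed without control embryo 3 (0.33, adjusted p = 0.0491) or cKO embryo 3 (0.36, adjusted p = 0.0157). In dKO the difference from control was 0.05 (-0.18 to 0.27) as deposited and 0.07 (-0.10 to 0.23) after centring. Against cKO, dKO stood at -0.23 (adjusted p = 0.0897) as deposited and 0.04 (adjusted p = 0.800) after centring, and the deposited value passed without cKO embryo 3 (-0.32, adjusted p = 0.0229).

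The ratio of Cdkn2c to Cdkn2d, chosen after their values were seen, compares the INK4 genes among the members within each library. It was 1.03, 1.04, 1.12 and 1.14 in control embryos, 0.715, 0.854, 0.847 and 0.824 in cKO embryos, and 0.582, 0.533, 0.769 and 0.777 in dKO embryos. All mutant embryos were below all controls in this ratio, and the mutants overlapped each other. The ratio of Cdkn2c to Cdk4, also chosen afterwards, was 0.0588 to 0.0744 in controls, 0.0467 to 0.0626 in cKO and 0.0346 to 0.0477 in dKO. These ratios are not affected by a factor common to a library, and they were not tested.

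Ccne1 and Cdkn2c, the 2 members lower in every dKO embryo than in every control, also went together across the 12 embryos, with Pearson r = 0.87 on the centred scale. These points share the genotype groups and the libraries, so r is a description. The 250 bases before a RefSeq start site of each gene are shown side by side. GGGCGG, the GC-box letters known from Sp family factors, is in capitals on either strand. The Ccne1 window (chr7:38107491-38107740, minus strand) holds 4 matches and the Cdkn2c window (chr4:109666757-109667006, minus strand) holds 3, and the window of a second Cdkn2c start site holds none. The Cdkn2c window, and part of the Ccne1 window, lie inside the GENCODE gene coordinates given above, since the RefSeq start sites differ.
Ccne1: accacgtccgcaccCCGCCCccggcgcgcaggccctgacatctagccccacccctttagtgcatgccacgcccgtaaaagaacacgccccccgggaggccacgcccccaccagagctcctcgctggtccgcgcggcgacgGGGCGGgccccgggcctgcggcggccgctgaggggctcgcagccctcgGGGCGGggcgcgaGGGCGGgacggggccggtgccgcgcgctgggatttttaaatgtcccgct
Cdkn2c: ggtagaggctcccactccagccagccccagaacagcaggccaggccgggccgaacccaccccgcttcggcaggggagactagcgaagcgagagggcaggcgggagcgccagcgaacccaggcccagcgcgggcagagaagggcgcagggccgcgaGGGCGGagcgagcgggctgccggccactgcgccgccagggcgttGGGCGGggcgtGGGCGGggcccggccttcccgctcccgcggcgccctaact
GGGCGG was found in 32.7% of the 32851 windows and in 7 of the 9 member windows. Windows were found for 7 of the 10 genes, those without one being Ccnd1, Ccnd2 and Cdkn1c. The E2F octamers TTTCCCGC, TTTCGCGC, TTTGGCGC and TTTGCCGC were found in 1.86% of the 32851 windows and in 0 of the 9 member windows. All motifs were searched on both strands, separately and with overlaps allowed, and a window without a match lacks only these letters in these 250 bases.

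The genes whose centred values ran most like those of Ccnd1 and Cdkn2c, the members called after centring, were taken as the 3 with the highest Pearson r over the 12 embryos. They were picked as the highest among all tested genes, and the embryos share the genotype groups, so each r is a description. For Ccnd1 they were Commd7 (r = 0.94), Cdk13 (0.94) and Csnk1d (0.94). Commd7 averaged 5.16, 7.76 and 6.93 TPM in control, cKO and dKO, Cdk13 15.9, 20.5 and 18.03, and Csnk1d 17.1, 23.2 and 20.6. For Cdkn2c they were Fam102b (0.95), Atad2 (0.94) and Spidr (0.94). Atad2, a chromatin factor of dividing cells, averaged 23.3, 20.6 and 14.8 TPM, Fam102b 4.38, 4.56 and 3.13, and Spidr 5.30, 5.48 and 4.00. Among the members themselves, Cdkn2c had r = -0.67 with Ccnd1, and Ccnd1 had r = 0.65 with Cdkn2d.

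Other genes of the G1 to S transition were followed in a list of 24, of which 20 passed the filter on low values. Cdkn2a and Cdkn2b, the remaining INK4 genes, were below it at 0 to 0.029 and 0 to 0.095 TPM, and so were E2f2 and Myc, at 0.40 to 0.95 and 0.44 to 1.39 TPM. In cKO against control limma called 5 of the 20 higher and 0 lower as deposited, where 34.3% of all tested genes were called higher and 1.09% lower, and 2 higher and 3 lower after centring (3.72% and 2.96% of all genes). In dKO against control it called 0 higher and 2 lower as deposited (1.79% and 3.4% of all genes), and 0 higher and 4 lower after centring (3.74% and 4.69%). In dKO against cKO it called 0 higher and 9 lower as deposited (0.612% and 38.8% of all genes), and 1 higher and 4 lower after centring (2.1% and 3.83%). The median of the 20 was 0.14, -0.13 and -0.29 in the 3 comparisons as deposited and -0.11, -0.11 and -0.02 after centring.

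Cdkn1a, which encodes p21 and is a well-known p53 target, measured 1.24, 0.380, 0.427 and 0.345 TPM in controls, 3.51, 3.35, 3.47 and 4.12 TPM in cKO, and 0.169, 0.450, 0.673 and 0.410 TPM in dKO. Every cKO embryo was above every other embryo, and control embryo 1 was the highest of the rest. Cdkn1a means were 0.597 TPM in control and 0.425 TPM in dKO, so the gene passed the filter on low values only through the cKO group. Its calls as high in cKO are therefore not independent of that filter. Cdkn1a was higher in cKO by 1.56 ± 0.162 (limma adjusted p = 7.9e-05) as deposited and by 1.31 ± 0.147 (adjusted p = 0.000218) after centring. In dKO it differed from control by -0.14 (95% interval -0.49 to 0.21), or -0.12 (-0.44 to 0.20) after centring, and without control embryo 1 these values turned to 0.03 on both scales. Cdkn1a was lower in dKO than in cKO, at -1.70 (limma adjusted p = 5.3e-05) as deposited and -1.435 (adjusted p = 0.000189) after centring. None of the 4 inhibitors among the members showed a call in cKO on either scale.

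The retinoblastoma genes are the substrates of the G1 kinases. Rb1 measured 8.47, 8.79, 9.35 and 8.89 TPM in controls, 13.2, 16.5, 12.1 and 15.5 TPM in cKO, and 7.21, 7.003, 8.20 and 6.06 TPM in dKO, so that the 3 groups did not overlap on the deposited scale. Rb1 was higher in cKO by 0.62 (limma adjusted p = 0.00186) as deposited and 0.38 (adjusted p = 0.0252) after centring, and lower in dKO than in cKO by -0.91 (adjusted p = 0.000194) and -0.64 (adjusted p = 0.00176). In dKO against control it stood at -0.29 (adjusted p = 0.145) as deposited and at -0.27 (adjusted p = 0.0814) after centring, where the groups overlapped, and was not called. The centred call in cKO was lost without control embryo 1 (adjusted p = 0.0649), control embryo 4 (0.0649), cKO embryo 1 (0.0633) or cKO embryo 2 (0.0807). Rbl2, which encodes p130, averaged 2.10 ± 0.240, 3.49 ± 0.515 and 1.87 ± 0.131 TPM in control, cKO and dKO (SD, n = 4), and Fbxw7, part of the ubiquitin ligase that degrades cyclin E, 3.55 ± 0.155, 5.22 ± 0.551 and 3.32 ± 0.353 TPM. Both were higher in cKO than in control and lower in dKO than in cKO as deposited. After centring they were called only as lower in dKO than in cKO, by -0.37 for Rbl2 (adjusted p = 0.0426) and -0.26 for Fbxw7 (adjusted p = 0.0384). Of the 12 fits that left out 1 embryo, the centred Rbl2 call stood in 2, those without control embryo 1 or cKO embryo 4, and was lost in the others (adjusted p of 0.0527 to 0.131). The centred Fbxw7 call stood in 3, those without control embryo 1, control embryo 2 or dKO embryo 4, and was lost in the others (adjusted p of 0.0515 to 0.103).

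Ccne2, the second E cyclin, measured 7.12, 7.37, 6.52 and 6.64 TPM in controls, 3.90, 6.19, 6.09 and 6.69 TPM in cKO, and 3.82, 3.24, 3.50 and 4.38 TPM in dKO. Every dKO embryo was below every control, and cKO embryo 1 stood with the dKO embryos. Ccne2 fell by 0.75 (-0.75 ± 0.130, limma adjusted p = 0.00621) in dKO as deposited and by 0.73 (-0.73 ± 0.120, adjusted p = 0.00369) after centring. In cKO it stood at -0.26 (adjusted p = 0.133) as deposited and -0.50 (adjusted p = 0.0269) after centring, a call lost without any single control embryo, cKO embryo 1 or cKO embryo 2 (adjusted p of 0.0507 to 0.0724). Ccne2 was called lower in dKO than in cKO as deposited (-0.49, adjusted p = 0.0123) and not after centring (-0.22, adjusted p = 0.291). Ccne1 held 41.1% to 53.1% of the summed E cyclin TPM in controls, 40.4% to 57.8% in cKO and 49.1% to 56.8% in dKO, with all groups overlapping. Cul1, the scaffold of the SCF ubiquitin ligases, measured 24.3 ± 2.14, 25.4 ± 2.42 and 18.2 ± 1.42 TPM and fell in dKO by 0.40 (-0.40, adjusted p = 0.0310) as deposited and by 0.38 (-0.38, adjusted p = 0.0245) after centring. This Cul1 call was lost on the deposited scale without any single control embryo, dKO embryo 2 or dKO embryo 3 (adjusted p of 0.0501 to 0.0958), and after centring without control embryo 2 or 3 or dKO embryo 2 or 3 (0.0527 to 0.0687). Cul1 was also called lower in dKO than in cKO as deposited (-0.45, adjusted p = 0.00413) and not after centring (-0.19, adjusted p = 0.235). Cdk2, the kinase of the E cyclins, averaged 11.98 ± 2.18, 11.2 ± 2.15 and 10.3 ± 0.553 TPM and was not called in any comparison.

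The remaining calls after centring, named after their values were seen, were those of Ccna2, Rbl1 and Cks1b. They are the S phase cyclin, the gene of p107 and a CDK subunit. In the comparisons where they were called after centring, limma called none of them as deposited. Rbl1 was called lower in dKO than in cKO as deposited (-0.31, adjusted p = 0.0465) and not after centring (-0.04, adjusted p = 0.824). In cKO against control, Ccna2 stood at -0.14 (adjusted p = 0.402) as deposited and -0.39 (adjusted p = 0.0468) after centring, and Rbl1 at -0.11 (adjusted p = 0.446) and -0.36 (adjusted p = 0.0338). In dKO against control, Ccna2 stood at -0.46 (adjusted p = 0.0615) as deposited and -0.44 (adjusted p = 0.0244) after centring, and Rbl1 at -0.42 (adjusted p = 0.0542) and -0.40 (adjusted p = 0.0190). Cks1b in dKO against cKO stood at 0.09 (adjusted p = 0.518) as deposited and 0.36 (adjusted p = 0.0453) after centring. Of the 12 centred fits that left out 1 embryo, the calls in cKO stood in 4 for Ccna2 and 6 for Rbl1, those in dKO against control in 9 for each gene, and that of Cks1b in 2. The Ccna2 call in cKO was lost without any single control embryo, cKO embryo 1, 2 or 3, or dKO embryo 3, and the Rbl1 call without control embryo 2, 3 or 4 or cKO embryo 1, 2 or 3 (adjusted p up to 0.134 and 0.105). The dKO call of Ccna2 was lost without control embryo 3 or 4 or dKO embryo 3, and that of Rbl1 without control embryo 3 or 4 or dKO embryo 4 (adjusted p up to 0.0687 and 0.0589). The Cks1b call stood only without cKO embryo 4 or dKO embryo 3 (elsewhere adjusted p up to 0.134).

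**Figure D4:**
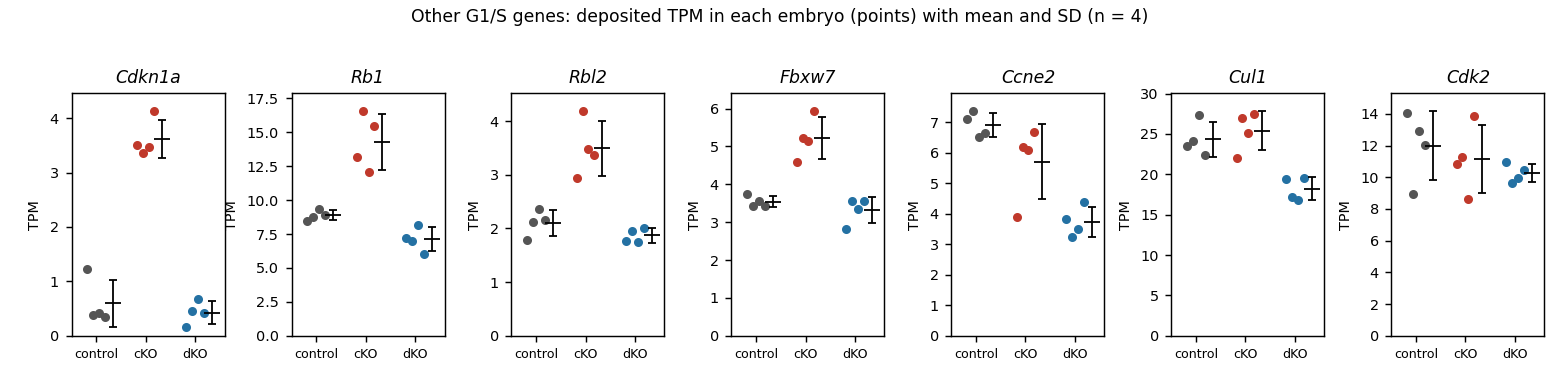
Deposited TPM (linear axis from 0) of 7 further genes of the G1 to S transition in each embryo (points) with mean and SD (n = 4), control in grey, cKO in red and dKO in blue. Cdkn1a, Rb1, Rbl2 and Fbxw7 stand highest in all cKO embryos, and Ccne2 in all dKO embryos is below all controls.

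Cell type markers differed between genotypes in some lists and not in others. The marker counts below are to be read beside the shares of all tested genes that passed the same threshold. For cKO against control these were 34.3% higher and 1.09% lower on the deposited scale, and 3.72% and 2.96% on the centred scale. For dKO against control they were 1.79% and 3.4%, then 3.74% and 4.69% with centring. Erythroid markers (5 of 5 tested) summed to 1419 to 2296 TPM in controls, 1716 to 2256 in cKO and 1402 to 2147 in dKO. Of these, 0 were called in any comparison on either scale. The radial glia markers had a mean centred log2 level of 3.90 to 4.22 in controls, 3.78 to 3.91 in cKO and 3.94 to 4.09 in dKO. In cKO against control, 3 of the 10 were called as deposited (2 higher, 1 lower) and 2 after centring (both lower). Intermediate progenitor markers (6 of 6 tested) summed to 50.7 to 66.98 TPM in controls, 52.3 to 68.8 in cKO and 49.7 to 59.2 in dKO, with a mean centred log2 level of 3.102 to 3.34, 2.92 to 3.02 and 2.98 to 3.18. Of the 6, limma called 2 in cKO on the deposited scale, in opposite directions, 2 in cKO after centring, both lower, and 1 as lower in dKO than in control on both scales. Neuron markers (10 of 10 tested) summed to 261 to 295 TPM in controls, 382 to 457 in cKO and 192 to 292 in dKO, with 7 called higher in cKO as deposited and 2 after centring. In dKO against control, 1 was called lower as deposited and 2 after centring. In dKO against cKO, 8 were called lower as deposited and 4 after centring, where 38.8% and 3.83% of all genes were called lower. Markers of dividing cells (8 of 8 tested) summed to 526 to 613, 440 to 625 and 398 to 492 TPM, with 1 called lower in cKO on both scales and 1 lower in dKO after centring only. Their mean centred log2 level was 5.50 to 5.66 in controls, 5.19 to 5.45 in cKO and 5.197 to 5.44 in dKO, so that all mutant embryos lay below all controls, beside the centred Cdkn2c values, in which they did the same. Microglia markers (5 of 6 tested) summed to 6.07 to 7.15 TPM in controls, 22.5 to 30.8 in cKO and 7.35 to 8.96 in dKO, with 4 called higher in cKO on both scales. Vessel and pericyte markers (7 of 8 tested) summed to 10.6 to 13.45, 20.8 to 27.7 and 13.6 to 21.5 TPM, and markers of meninges (5 of 7 tested) to 23.9 to 41.2, 43.7 to 51.9 and 37.7 to 55.1 TPM. On these deposited sums, the lowest mutant embryo was above every control for the vessel list (13.6 against 13.45 TPM) and for the microglia list (7.35 against 7.15 TPM). On the mean centred log2 level the vessel list kept this order. The microglia list then overlapped, at 1.12 to 1.27 in controls and 1.26 to 1.42 in dKO. In dKO against control, 0 microglia markers were called on either scale. Markers of choroid plexus and hem (5 of 6 tested) summed to 43.9 to 102 TPM in controls, 84.1 to 255 in cKO and 70.1 to 293 in dKO. In cKO against control, 7 vessel, 4 meninges and 3 choroid plexus markers were called higher as deposited, and 3, 1 and 1 after centring. In dKO against control these counts were 0, 1 and 0 as deposited, and 1, 3 and 0 after centring. No listed marker was at 0 in all 4 embryos of a group. The part of these cells in the differences of the G1 genes was not tested, and in bulk tissue fewer cells of a type and less RNA per cell cannot be told apart. Exons of 6 of the 10 members overlap a gene on the opposite strand, over 2.63% to 30.7% of their exonic bases, and none overlaps a gene on its own strand. The largest overlaps were those of Cdkn1c (30.7%), Ccnd1 (23.4%, with the protein-coding gene LTO1) and Cdk4 (19.7%). The libraries were strand-specific per the labels, and how the counting used strand is not given in the sources used here.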

How the data were processed

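Bulk RNA sequencing of 12 pallia was used, 4 per genotype, grouped by the genotype labels. The authors deposited 1 table of TPM values per gene symbol and embryo. The unit was read from the values, since each table holds fractional numbers with 1 common sum. HISAT2 and the mm10 build are named in the submitters' processing notes. The quantifier and annotation are not given in the sources used here. TPM keeps no read depth, so depth per library is unknown and no counting interval is given. GENCODE M21 matched 54106 of the 54735 symbols, and RefSeq (GRCm38.p6) gave upstream windows.

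The log2 of TPM plus a pseudocount of 1 was fitted by limma 3.58.1 (lmFit, eBayes with trend, R 4.3.3) for 11764 genes that averaged 1 TPM or more over all libraries. The 3 groups shared 1 fit without covariates, and a Benjamini-Hochberg adjusted p under 0.05 over all tested genes was a call. Median-shift centring takes the log2 difference of every tested gene from its mean over libraries and subtracts the median of these from the library. Protein-coding rescaling sets the protein-coding sum of every library equal. The procedure was tested on simulated data with known changes. Other settings tried were quantile normalization, a pseudocount of 0.1, no filter (39624 genes), a mean of at least 5 TPM (5803 genes), fits of 2 groups, the replicate number as a block, and leaving out each embryo. Named genes were the members, the targeted genes, and those of the other G1 to S genes called on both scales in a comparison, with Ccne2, Cdk2, Cdkn2a, Cdkn2b and Cdkn1a. The members and lists were chosen with earlier results of these data known. Plots were drawn with matplotlib 3.10.9.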

Additional observations from a re-analysis of the deposited data

Results flagged for a closer look

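In 2 of the 30 groups of 4 embryos (10 genes in 3 genotypes), 1 embryo had a Dixon ratio (the gap to the nearest embryo over the range of the group) that was above its 95% critical value. Chance gives about 1.5 such groups in 30. For Ccnd2 the ratio was 0.88 in cKO, where embryo 4 measured 126 TPM. For Ccne1 the ratio was 0.869 in dKO, where embryo 2 measured 3.12 TPM. The cKO embryo 4 library also had the largest median shift, 0.32 on the log2 scale.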

How the results depend on the processing

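Precision is limited by 4 embryos per group, by an unknown read depth and by a scale that shifted between libraries. All 30 comparisons of a member kept their direction and their side of the threshold with a pseudocount of 0.1, in fits of 2 groups only and with the replicate number as a block. Replicate numbers did not pair the embryos: over 12 pairs with the same number, deviations from the group means had r of -0.0954 to 0.0745, beside -0.16 to 0.142 over 36 pairs with different numbers. The replicate block left 1 of the other G1 to S genes called in dKO against control (2 without it). With centring, the block gave 502, 598 and 415 called genes in cKO against control, dKO against control and dKO against cKO, in place of 786, 992 and 698, and 1, 1 and 2 of the other G1 to S genes in place of 5, 4 and 5. It changed no call of a member, and it ended the centred calls of Ccna2, Ccne2, Rb1 and Rbl1 in cKO against control, Ccna2, Cul1 and Rbl1 in dKO against control, and Cks1b, Fbxw7 and Rbl2 in dKO against cKO.

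Genes called numbered 4163 in cKO against control, 610 in dKO against control and 4636 in dKO against cKO as deposited. After median-shift centring they numbered 786 (438 higher, 348 lower), 992 (440 higher, 552 lower) and 698 (247 higher, 451 lower). Protein-coding rescaling gave 1539, 1080 and 1139, and quantile normalization 810, 1029 and 798. A mean of at least 5 TPM gave 1900, 294 and 2220, where fewer genes were tested. Members called were 0, 2 and 0 of 10 after centring and by quantile normalization, and 2, 2 and 0 with protein-coding rescaling. A mean of at least 5 TPM left 8 members and called 1, 1 and 1 of them, and no filter left 0 called in dKO against control. The other G1 to S genes called in dKO against control were 4 after centring, 5 with protein-coding rescaling, 5 by quantile normalization, 1 without a filter and 4 with 2 groups only. In dKO against cKO they were 5, 5 and 4 under the first 3 of these, and a mean of at least 5 TPM left 2 called in cKO against control. The cause of these changes was not tested.

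Directions that turned with the scale among the members, Cdk2 and Cul1 are given here. Cks1b and Trp53, not called in cKO against control, also turned there, from 0.13 and 0.18 as deposited to -0.12 and -0.07 after centring. So did Ccnh, Cdc25a, E2f1 and E2f3, from 0.22, 0.10, 0.15 and 0.02 to -0.03, -0.15, -0.10 and -0.23, without a call. In dKO against cKO, Ambra1, E2f1, E2f3, Mycn and Skp1a turned from negative to positive after centring, also without a call. After centring, cKO against control stood at -0.13 for Ccnd2, -0.061 for Cdk4, -0.20 for Cdkn1b and -0.19 for Cul1, and dKO against cKO at 0.22 for Ccnd1, 0.0056 for Ccnd3, 0.17 for Cdk2, 0.13 for Cdk4, 0.23 for Cdkn1b, 0.18 for Cdkn1c and 0.038 for Cdkn2d. With protein-coding rescaling, cKO against control stood at -0.036 for Ccnd2, -0.093 for Cdkn1b and -0.093 for Cul1, and dKO against cKO at 0.16 for Ccnd1, 0.11 for Cdk2, 0.083 for Cdk4, 0.16 for Cdkn1b and 0.12 for Cdkn1c. By quantile normalization, cKO against control stood at -0.21 for Cdkn1b and -0.18 for Cul1, and dKO against cKO at 0.20 for Ccnd1, 0.037 for Ccnd3, 0.18 for Cdk2, 0.0008 for Cdk4, 0.24 for Cdkn1b, 0.14 for Cdkn1c and 0.052 for Cdkn2d.

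Leaving out each embryo in turn, genes called ranged from 2468 (without cKO embryo 2) to 4353 in cKO against control, from 333 (without control embryo 4) to 705 in dKO against control, and from 3082 (without cKO embryo 2) to 4851 in dKO against cKO. Members called ranged from 0 to 2 in dKO against control and from 2 to 4 in dKO against cKO, and the other G1 to S genes from 1 to 4 in dKO against control. After centring the genes called ranged from 461 to 951, 542 to 1035 and 253 to 728, the members called in dKO against control from 1 to 2, and the other G1 to S genes from 1 to 7, 1 to 4 and 2 to 4. Uncalled differences whose direction turned ranged, in cKO against control, from -0.0092 to 0.23 for Ccnd2, -0.27 to 0.043 for Ccne1, -0.0098 to 0.12 for Cdkn1b and -0.22 to 0.012 for Cdk2. In dKO against control they ranged from -0.025 to 0.16 for Cdk6, -0.0011 to 0.12 for Cdk4, -0.11 to 0.11 for Cdkn1b, -0.0072 to 0.096 for Cdkn2d and -0.22 to 0.031 for Cdkn1a. In dKO against cKO they ranged from -0.17 to 0.068 for Ccnd1, -0.16 to 0.0595 for Cdkn1b, -0.21 to 0.0497 for Cdkn1c and -0.20 to 0.0067 for Cdk2. After centring they ranged from -0.029 to 0.088 for Cdkn1c and -0.0078 to 0.083 for Cdkn2d in cKO against control, from -0.077 to 0.12 for Cdkn1b and -0.20 to 0.031 for Cdkn1a in dKO against control, and from -0.086 to 0.088 for Ccnd3 and -0.018 to 0.072 for Cdkn2d in dKO against cKO.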
